A study of Rattus norvegicus with 4 samples.

Results

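The circular RNAs (circRNAs) described here are those that the caller reported in both libraries of one condition and in neither library of the other, in rat sciatic nerve after crush or sham surgery. Of 4942 circRNAs listed, 223 had back-splice junction reads in both crush libraries and 0 in both sham libraries (4.51%), and are called crush-only. Another 176 had junction reads in both sham libraries and 0 in both crush libraries (3.56%), and are called sham-only. Together they made 399 of the 4942. The members were chosen by whether their junction reads were above 0 in each library, so their levels in crush and sham are given as a description and carry no test.

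A circRNA forms when a downstream splice donor is joined to an upstream splice acceptor, and only reads across that junction tell it from the linear transcript of the same gene. Most circRNAs hold exons of a protein-coding host gene, some hold intron sequence, and a host can give many circRNAs that share an end. In the sciatic nerve, Schwann cells wrap axons in myelin inside perineurial and vascular sheaths. After a crush, the axons beyond the injury break down, Schwann cells leave the myelinating state, and neutrophils followed by monocytes enter from the blood.

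The animals were Sprague-Dawley rats at postnatal week 6. Crush was applied 2 times over 3 mm of nerve, each lasting 15 s, at an interval of 3 s. Sham surgery exposed the nerve and left it intact. All samples were collected 24 h after surgery, and the crush samples held the lesion with 1 mm of nerve on each side. There were 2 total RNA libraries per group, and the labels do not say whether they came from separate animals, so the spread between them may be technical.

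The libraries held 8250 (crush 1), 9027 (crush 2), 9018 (sham 1) and 8726 (sham 2) junction reads, from 1785, 2022, 1704 and 1711 circRNAs. No listed count was 1, the lowest above 0 being 2, and a 0 may therefore hide a read. Junction reads are whole counts, and SRPBM is the deposited signal in which each read of a library is worth a constant between 0.0598 and 0.0786. Of the markers of the tissue's own cells, 3 of 11 Schwann cell genes hosted any circRNA (Cdh19, Mbp and Pmp22, with 2, 0, 3 and 9 junction reads in crush 1, crush 2, sham 1 and sham 2), and 0 of 7 axon genes did. Absence of a circRNA says nothing of the linear transcript of these genes.

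The sequence around the junctions is not shown, since the coordinates are those of the rat build Rnor_6.0 and no genome of that build was used here. The host promoters below are shown because leukocyte and inflammation genes, described further on, gave 11 crush-only hosts (42.3% of those listed, against 6.79% of all hosts) and 0 sham-only hosts. They are the 250 bases before the RefSeq start of each gene in the assembly GRCr8, written 5′ to 3′ on the gene's strand. Capitals mark a match, on either strand, to an AP-1 motif (TGANTCA) or to a single narrow form of the NF-kB motif. Other forms of the NF-kB motif were not searched for and would stay in lower case. Csf3r lies at chr5:143582970-143583219 (plus strand), Itgam at chr1:192089342-192089591 (plus strand) and Tnfaip3 at chr1:15543980-15544229 (minus strand).
Csf3r: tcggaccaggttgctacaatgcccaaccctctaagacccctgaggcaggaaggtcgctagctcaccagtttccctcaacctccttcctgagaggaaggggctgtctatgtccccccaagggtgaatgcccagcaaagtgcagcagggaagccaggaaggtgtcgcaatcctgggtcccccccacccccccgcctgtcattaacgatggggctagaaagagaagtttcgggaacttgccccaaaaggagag
Itgam: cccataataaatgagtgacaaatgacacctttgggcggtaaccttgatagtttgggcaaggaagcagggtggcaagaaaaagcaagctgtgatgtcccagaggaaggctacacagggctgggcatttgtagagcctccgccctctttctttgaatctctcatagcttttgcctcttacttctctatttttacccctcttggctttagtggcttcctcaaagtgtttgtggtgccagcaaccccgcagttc
Tnfaip3: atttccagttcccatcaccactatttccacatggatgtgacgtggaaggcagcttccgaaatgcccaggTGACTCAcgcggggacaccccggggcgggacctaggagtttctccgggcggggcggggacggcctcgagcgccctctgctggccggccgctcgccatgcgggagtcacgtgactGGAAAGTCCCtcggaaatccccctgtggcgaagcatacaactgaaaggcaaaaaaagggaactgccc

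The Tnfaip3 stretch held an AP-1 match that began 181 bases before the start and an NF-kB match on the other strand that began 67 bases before it. Csf3r and Itgam held neither of these motifs, nor the ETS motif AGGAAGT that PU.1 also reads. Windows of 300 bases, with 50 after the start, were found for 134 of 158 crush-only hosts and 106 of 135 sham-only hosts. Only the 250 bases before the start were searched in each. The ETS motif was in 5.22% of the crush-only hosts' windows, in 1.89% of the sham-only hosts' windows, in 6.02% of the 1877 windows of all host genes and in 6.99% of all 27457 RefSeq windows. AP-1 matched 3.73%, 2.83%, 3.25% and 6.36% of these windows in the same order, and the searched NF-kB form 0.746%, 0%, 0.693% and 0.317%. The crush-only shares of AP-1 and NF-kB thus lay near those of all host genes. Of 8 windows of crush-only leukocyte hosts, 0 held the ETS motif. The AP-1 motif and the searched NF-kB form were in 1 each, that of Tnfaip3. That window also held the only match to this NF-kB form among all crush-only hosts, and its 2 marked matches do not overlap.

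Crush-only circRNAs took a larger part of the junction reads of their libraries than sham-only circRNAs did of theirs. They held 1056 and 1018 reads in crush replicates 1 and 2, or 12.8% (95% Clopper-Pearson interval 12.1 to 13.5) and 11.3% (10.6 to 11.9) of the reads. Sham-only circRNAs held 678 and 683 reads in sham replicates 1 and 2, or 7.52% (6.98 to 8.08) and 7.83% (7.27 to 8.41). Intervals and floors throughout cover counting error only. The summed level was 76.6 and 60.9 SRPBM for the crush-only set and 49.4 and 53.7 SRPBM for the sham-only set.

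Most members were thinly covered. The median was 3 reads in each library of the group for both sets. In the crush-only set 32 circRNAs (14.3%) sat at the lowest value the list allows, 2 reads in both libraries, and so did 25 (14.2%) of the sham-only set. At least 5 reads in both libraries were reached by 38 crush-only and 23 sham-only circRNAs, and at least 10 by 10 and 2. Taking 3 reads as the most a 0 could hide in a library, the group mean in SRPBM lay above that floor for 117 crush-only and 119 sham-only circRNAs, and at least 2-fold above it for 27 and 25. With this floor the largest ratio was 10.5-fold higher after crush and 9.07-fold higher after sham. The floor makes no allowance for a lone read that the list may leave out. These ratios and counts are therefore not strict lower bounds.

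Across circRNAs, the log2 reads of the replicates had a Pearson correlation of 0.62 over the 223 crush-only and 0.40 over the 176 sham-only circRNAs. The circRNAs of a library share its depth and are not independent. The replicates lay within 2-fold of each other for 189 crush-only and 149 sham-only circRNAs. The 12 most abundant held 23.9% and 22.7% of the crush-only reads and 17.0% and 19.6% of the sham-only reads.

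**Figure D1:**
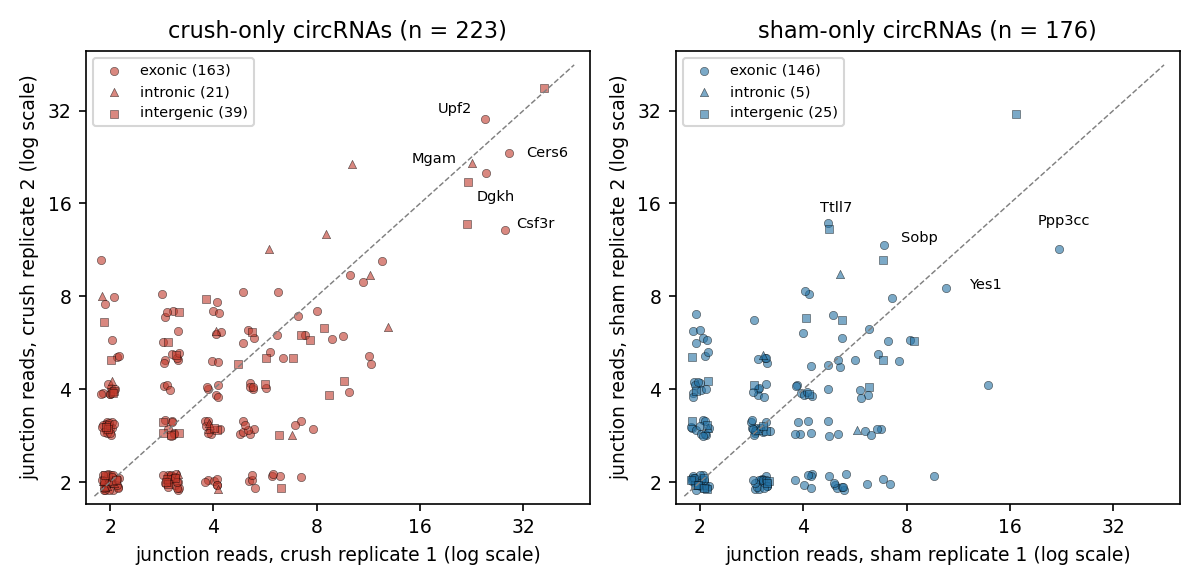
Junction reads of each crush-only circRNA in crush replicate 1 (horizontal) and 2 (vertical), left, and of each sham-only circRNA in sham replicates 1 and 2, right, both on log scales with points moved slightly so that equal counts can be seen. Symbols give the class, and the dashed line marks equal reads. Most points lie near the lower limit of 2 reads, and 10 crush-only against 2 sham-only circRNAs have at least 10 reads in both libraries.

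Just outside the rule were 49 circRNAs in both crush libraries with 2 reads in 1 sham library, and 58 in both sham libraries with 2 reads in 1 crush library. Apbb1ip, which encodes an adaptor for integrin activation, had 12, 17, 2 and 0 reads in crush 1, crush 2, sham 1 and sham 2. Arl15 had 13, 11, 0 and 2 in the same order. On the sham side, an intergenic circRNA at chr3:166743545-166746605 had 2, 0, 13 and 12 reads and one of Arhgap32 had 0, 2, 7 and 17. These exceed most of the members in reads, so the border of the rule runs through similar levels. Of the 681 circRNAs called in both crush libraries, crush-only ones made 32.7%, and of the 643 called in both sham libraries, sham-only ones made 27.4%. For scale, 334 circRNAs were called in exactly 1 crush and 1 sham library, and 3587 in a single library.

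The most abundant crush-only circRNA had no host gene. It lay at chr1:221185801-221186464 on the minus strand and had 35 and 37 reads, against 0 and 0 after sham. A second one at chr1:221184324-221186464 shared its end, with 7 and 6 reads. Upf2, a core factor of nonsense-mediated decay, followed with 26 and 29 reads (chr17:76245627-76265943, exonic). Cers6, a ceramide synthase, had 30 and 22 reads in its main circRNA (chr3:55157605-55224851), 10 and 9 in another with the same start (chr3:55157605-55165724), and 2 and 3 in its last. All 6 circRNAs of Cers6 in the list had 0 reads in both sham libraries.

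Dgkh, a diacylglycerol kinase, gave 24 and 20 reads in a circRNA of 2405 bases span, and 5 and 3 in a second. Mgam, which encodes maltase-glucoamylase, gave an intronic circRNA with 23 and 21 reads. Csf3r, the receptor for the neutrophil growth factor G-CSF whose promoter is printed above, had 28 and 14 reads in an exonic circRNA of 509 bases span (chr5:144038462-144038971). Its reads differed 2-fold between the crush replicates.

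Intergenic circRNAs at chr1:63736954-63760774 (22 and 19 reads) and chr10:91244105-91244498 (21 and 14 reads) came next. The former overlapped a circRNA of Lilrb3l, of the leukocyte immunoglobulin-like receptor family, on the same strand. It also shared an end with a circRNA that had 7 reads after sham. An intronic circRNA of Zfp629, a zinc finger gene, had 10 and 22 reads. Sdcbp, the scaffold protein syntenin, had 13 and 11. Intronic rows of Klhl21, an adaptor of a cullin ubiquitin ligase, had up to 9 and 13 reads, an intronic circRNA of Mbd1, a methyl-CpG binding protein, had 11 and 9, and an exonic one of Vcan, the matrix proteoglycan versican, also had 11 and 9. Every circRNA of these paragraphs had 0 reads in both sham libraries, as the rule requires, except the end-sharing circRNA with 7 reads after sham. Their loci were not all without sham reads: 3 circRNAs sharing an end with that of Upf2 held 10.

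The sham-only set was led by an intergenic circRNA at chr10:53632921-53787097 with 17 and 30 reads in sham replicates 1 and 2. It spans 154176 bases on the plus strand and overlaps a circRNA of Myh1, a myosin heavy chain gene of fast skeletal muscle. Ppp3cc, a calcineurin catalytic subunit, had 21 and 12 reads (chr15:51936366-51944899), and Yes1, a Src family kinase, 11 and 9 (chr9:121831708-121843361). An intergenic circRNA at chr5:129413066-129457884 had 5 and 14 reads and overlapped a circRNA of Faf1.

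Sobp had 7 and 12 reads, and Ttll7, a tubulin polyglutamylase, had 5 and 13. Inpp4b, a phosphoinositide phosphatase, had 14 and 4, the widest replicate gap of these. An intergenic circRNA at chr1:276011500-276141673 had 7 and 10 reads, an intronic one of Rsbn1l 5 and 10, Ubac2 7 and 8, Prss12, the neuronal protease neurotrypsin, 8 and 6, and an intergenic one at chrX:137709443-137733342 8 and 6. Their counts were lower than those of the crush-only leaders: only the leading pair reached 10 reads in both libraries.

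The class of a circRNA was not used by the rule, and its shares are described without a test. Among crush-only circRNAs, 163 were exonic (73.1%, interval 66.8 to 78.8), 21 intronic (9.42%, 5.92 to 14.03) and 39 intergenic (17.5%, 12.7 to 23.1). Among sham-only circRNAs, 146 were exonic (83.0%, 76.6 to 88.2), 5 intronic (2.84%, 0.929 to 6.50) and 25 intergenic (14.2%, 9.41 to 20.3). The binomial intervals of the exonic and intronic shares overlapped between the sets, and circRNAs of a host are not independent.

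By reads, intronic circRNAs held 11.2% and 12.7% of the crush-only reads and 2.80% and 3.51% of the sham-only reads. Exonic ones held 67.4% and 66.3% against 82.4% and 77.2%. Intergenic ones held 21.4% and 21.02% against 14.7% and 19.3%.

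Other circRNAs called in both crush libraries held fewer intronic ones. The 458 with reads in at least 1 sham library as well were 84.3% exonic, 1.97% intronic and 13.8% intergenic. For the sham libraries the 467 such circRNAs were 82.9% exonic, 2.36% intronic and 14.8% intergenic, close to the sham-only shares. All 4942 listed were 75.5% exonic, 9.69% intronic and 14.8% intergenic, most of them called in 1 library.

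**Figure D2:**
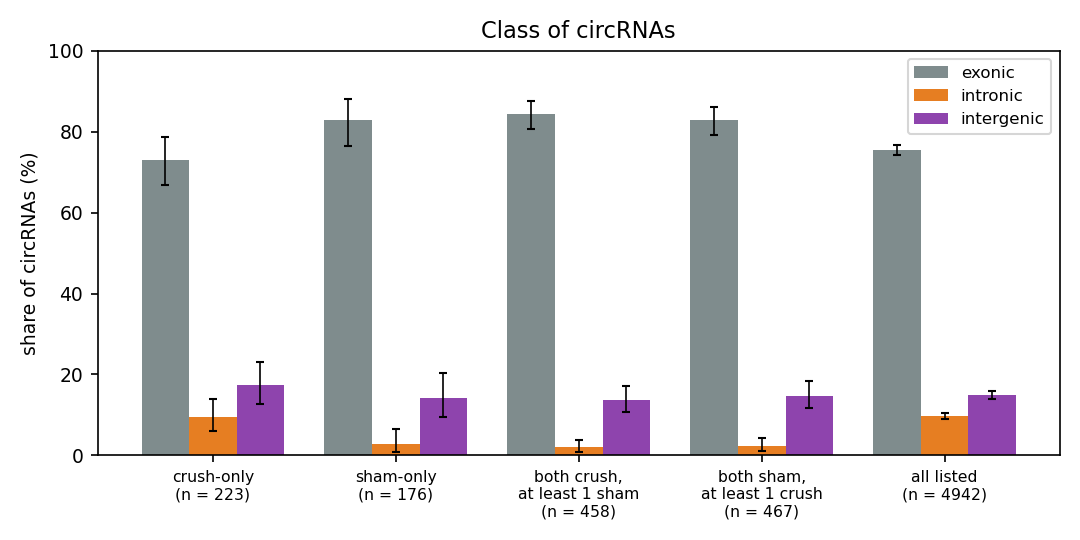
Share of exonic, intronic and intergenic circRNAs (percent of circRNAs, vertical) in the crush-only and sham-only sets, in circRNAs of both libraries of a condition with reads in the other, and in all listed, with 95% Clopper-Pearson intervals. The intronic share is 9.42% in the crush-only set and 2.84% in the sham-only set.

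Of the 21 intronic crush-only rows, 5 came from Klhl21. They end at the same base (chr5:169185563) and start between 169183933 and 169183945, so they differ by at most 12 bases at one end, with 22 and 37 reads in all. With rows this close merged, the intronic share of the crush-only set was 7.80%. Besides the intronic circRNAs of Mgam, Zfp629, Mbd1 and Klhl21, Susd6 had 13 and 6 reads. The 5 intronic sham-only circRNAs were in Rsbn1l, Psme3ip1 (6 and 3 reads), Myh1 (3 and 5), Ptch1 (3 and 3) and Rims2 (2 and 3). The order of the intronic shares turned when a sham library was left out: 8.31% crush-only against 8.57% sham-only without sham replicate 1, and 7.33% against 9.58% without sham replicate 2. It was kept without crush replicate 1 (11.4% against 3.33%) and without crush replicate 2 (12.3% against 3.26%). The exonic order turned without sham replicate 2, with 77.3% crush-only against 75.2% sham-only. Each of these runs asked for reads in 1 library for the set that lost a library and in both for the other. They do not compare like sets, whether the order was kept or turned.

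Crush-only circRNAs were shorter on the genome. Span, the end minus the start with introns included, had a median of 5628 bases in the crush-only set (interval 4626 to 6865, quartiles 2352 and 13873). The sham-only median was 13252 bases (interval 10362 to 17378, quartiles 4106 and 28826.5). The order held in each class: 5886 against 12312 bases for exonic, 3254 against 7722 for intronic and 5110 against 34408 for intergenic circRNAs. The intronic medians rest on only 21 and 5 circRNAs. Of the 21, the 5 near-identical Klhl21 rows had spans of 1618 to 1630 bases, all below that median. The intronic order is therefore weakly based. CircRNAs called in both libraries of one condition and at least 1 of the other lay between, with medians of 8377 and 8912 bases, and all listed circRNAs had 8917.

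The sets differed at both ends of the range. A span of at least 50 kb was found for 7 crush-only (3.14%) and 16 sham-only circRNAs (9.09%), against 8.58% of all listed. Spans under 1 kb made 28 (12.6%) and 11 (6.25%), against 9.57% of all. The shortest crush-only circRNAs were in Adgre5, the leukocyte adhesion receptor CD97 (193 bases, 4 and 3 reads), Gse1 (218 bases, 2 and 2) and Arid5b (230 bases, 3 and 3). The longest were intergenic, with 97932 bases (8 and 6 reads), 121897 (9 and 4) and 136439 (2 and 2).

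The shortest sham-only circRNAs were in Robo2, an axon guidance receptor (326 bases, 6 and 4 reads), Ptpra (357 bases, 4 and 3) and Dab2ip (380 bases, 3 and 3). The longest were intergenic, of 154176 bases (17 and 30 reads), 167504 (5 and 7) and 178466 (2 and 2). Each set thus ran from short spans to over 100000 bases, and the long end was intergenic in both.

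CircRNAs called in a single library were not used by the rule, and their span ran the same way. The 895 and 1052 called in crush replicate 1 or 2 alone had median spans of 7395 and 7873.5 bases. The 836 and 804 called in sham replicate 1 or 2 alone had 12285.5 and 10274.5. The group means were 7634 ± 338 (SD, n = 2) and 11280 ± 1422 bases (SD, n = 2), and the groups did not overlap (exact permutation test over libraries, two-sided, p = 0.333, the smallest p that 2 against 2 allows). Spans of at least 50 kb made 6.82% and 7.60% of these circRNAs after crush, against 12.8% and 11.6% after sham, with the same p.

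Class differed less among these single-library circRNAs. The intronic share was 13.0% and 11.8% in the crush libraries, and 11.005% and 9.83% after sham, without overlap (exact permutation p = 0.333). The exonic share was 72.5% and 71.0% against 73.6% and 78.1%, and the intergenic shares overlapped (exact permutation p = 0.667). The 6 measures compared this way cannot reach 0.05 in this design, alone or adjusted.

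**Figure D3:**
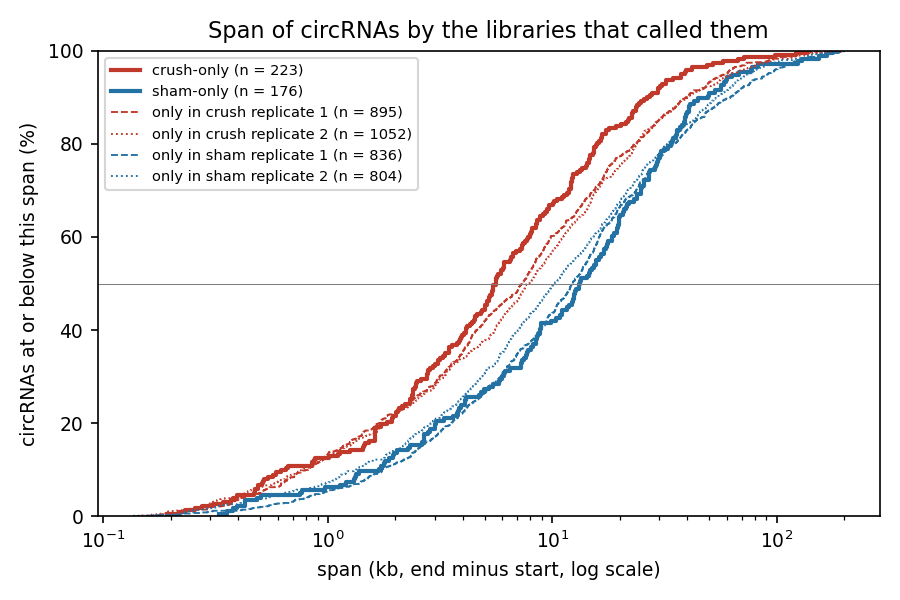
Cumulative share of circRNAs (percent, vertical) at or below each span (kb, log scale, horizontal) for the crush-only and sham-only sets, thick lines, and for circRNAs called in 1 library alone, thin lines. The crush-only curve crosses 50% at 5.63 kb and the sham-only curve at 13.3 kb, and both crush libraries' own curves lie left of both sham libraries' own.

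The plus strand held 96 crush-only (43.0%) and 92 sham-only circRNAs (52.3%), against 49.3% of all listed. Chromosome 8 held 10 crush-only (4.48%) and 2 sham-only circRNAs (1.14%), both below its 6.52% of all listed. Chromosome 12 held 9 and 1 (4.04% and 0.568%, against 2.37%), and chromosome 2 held 26 and 14 (11.7% and 7.95%, against 8.44%). Chromosome 3 ran the other way with 17 and 21 (7.62% and 11.9%, against 6.88%). No member lay on Y.

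Crush-only circRNAs came from 158 of 2327 host genes (6.79%) and sham-only circRNAs from 135 (5.80%). Hosts of both kinds numbered 6, which was 3.80% of the crush-only and 4.44% of the sham-only hosts, against 5.80% and 6.79% of all hosts in the other set. For 43 crush-only and 49 sham-only hosts the member was the only circRNA listed, so the rule fixed their 0 in the other condition. Of 112 crush-only hosts with a circRNA outside both sets, 77 had such reads after sham and 35 had none. Of 85 sham-only hosts with one, 62 had such reads after crush and 23 had none. For scale, of 613 hosts with reads in both crush libraries, 146 (23.8%) had none after sham. Of 562 hosts with reads in both sham libraries, 115 (20.5%) had none after crush. These last counts take all circRNAs of a host, members included, so the measures are not the same.

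A host with several members gave most often a pair. In the crush-only set 19 hosts had 2 or more, and 5 had 3 or more: Klhl21 with 5, and Mctp2, Cers6, Picalm and Vcan with 3 each. Mctp2, a calcium-binding membrane protein, held 10 and 12 reads in its 3. Picalm, a clathrin adaptor, held 14 and 17, and Vcan 15 and 17. Among hosts with 2, the most reads were in Dgkh (29 and 23), Susd6 (18 and 8) and Cdyl, a chromodomain corepressor (14 and 12).

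In the sham-only set 14 hosts had 2 or more members, and only Stk39 and Prex2 had 3. Stk39, the kinase SPAK of ion transport control, held 23 and 7 reads, so sham replicate 1 carried most of them. Prex2, an exchange factor for Rac, held 9 and 11. Pairs of members were in Arhgap10 (8 and 11) and Mipol1 (12 and 5), among others.

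Among the gene lists by cell type or function given here, leukocyte and inflammation genes split the sets most. Of its 26 genes that hosted a listed circRNA, 11 (42.3%) hosted a crush-only one, against 6.79% of all hosts, and 0 hosted a sham-only one, against 5.80%. In reads these were Csf3r (28 and 14, above), Picalm (14 and 17), Syk, the kinase downstream of immune receptors (13 and 12 over 2 circRNAs), and Nampt, the enzyme of NAD salvage (7 and 6 over 2). With fewer reads came Dock8, an exchange factor of leukocyte migration (2 and 10), Tnfaip3, the inhibitor A20 of NF-kB signalling (5 and 6), and Sirpa, the receptor of CD47 (6 and 5). Prkcb (3 and 7), Itgam, the alpha chain of the neutrophil and macrophage integrin Mac-1 (4 and 5), Ikzf1 (3 and 6) and Vav3 (2 and 2) completed the list. The list was drawn up with earlier results of these data known, so its count is not independent evidence.

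Over all circRNAs of these 26 hosts the libraries held 145, 174, 19 and 14 reads (crush 1, crush 2, sham 1, sham 2), of which the members, at 0 after sham by the rule, made 87 and 90. Without the members the reads were 58, 84, 19 and 14. Of the 11 leukocyte markers, all 7 that hosted a circRNA are also in this list, and the other 4 hosted none in any library. The 7 held 63, 49, 0 and 0 reads, and 16, 8, 0 and 0 without the members. In bulk tissue, more leukocytes and more circRNA per leukocyte cannot be told apart.

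Matrix genes hosted both kinds. Of 16 hosts, 3 were crush-only, Vcan, Sdcbp and the metalloprotease Adam9 (4 and 3), and 3 sham-only, the laminin chains Lama2 (5 and 4) and Lamb1 (4 and 2) and the collagen Col5a1 (2 and 2). The crush-only hosts were a proteoglycan, a scaffold and a protease, and the sham-only hosts structural chains of basement membrane and fibril. With 3 hosts in each set, whether the sets differ in this way was not tested. Without the members, the 16 hosts held 84, 102, 24 and 30 reads in crush 1, crush 2, sham 1 and sham 2. Emilin2, a host in neither set, carried much of the crush reads. With members included the 16 hosts held 116, 133, 35 and 38 reads in the same order. Without Emilin2 these fell to 58, 66, 29 and 29. The shares of hosts were 18.8% for each set, against 6.79% and 5.80% of all hosts.

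The Schwann cell, endothelial, perineurial and axonal lists held 0 crush-only hosts, against 6.79% of all hosts. Lists this small cannot tell 0 from that share. Of 12 Schwann cell and myelin hosts, Epb41l3, a membrane skeleton protein, was sham-only (6 and 6 reads), a share of 8.33% against 5.80% of all hosts. Of 6 endothelial hosts, Prex2 (9 and 11) and the angiopoietin receptor Tek (3 and 3) were sham-only, a share of 33.3%. Of 8 perineurium and fibroblast hosts, Bnc2 (7 and 5), and Gli3 (2 and 6) and Ptch1 (3 and 3) of the Hedgehog pathway were (37.5%). Of 3 axon and neuron hosts, Rims2, a scaffold of the presynaptic active zone, was (33.3%), with 4 and 5 reads over 2 circRNAs. The cell type markers did not all lie on the sham side: 4 of 8 endothelial markers hosted circRNAs with 8, 8, 7 and 11 reads in crush 1, crush 2, sham 1 and sham 2, and Dcn, the single hosting marker of perineurium and fibroblasts, had 0, 7, 0 and 0.

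Skeletal muscle genes hosted both kinds, at shares of 16.7% crush-only and 33.3% sham-only, against 6.79% and 5.80% of all hosts. Of 6 hosts, Mybpc2, a fast-muscle myosin-binding protein (2 and 6 reads), and Myh1 (3 and 5) were sham-only, and Mlip, a lamin-interacting muscle protein, was crush-only with 2 and 2 reads. Of 10 muscle markers, 3 hosted a circRNA, with 0, 2, 3 and 7 reads in crush 1, crush 2, sham 1 and sham 2. Over the 6 hosts the reads were 76, 84, 209 and 241, nearly all from Mlip, and without Mlip they were 0, 5, 5 and 15. Whether the amount of muscle in the samples has a part in the sham-only set, its leading intergenic circRNA over Myh1 included, was not tested.

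Kinases and phosphatases hosted both kinds, with 6 crush-only (10.2%) and 7 sham-only (11.9%) of 59 hosts, against 6.79% and 5.80% of all hosts, the former led by Dgkh and Rps6kc1 (7 and 6), the latter by Stk39.

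Ubiquitin ligases and deubiquitinases gave 8 crush-only (16.7%) and 5 sham-only (10.4%) of 48 hosts, against 6.79% and 5.80% of all hosts. Klhl21 (22 and 37), the deubiquitinases Usp32 (6 and 8) and Usp3 (7 and 5), and Nedd4 (4 and 2) had the most crush-only reads, and Itch (8 and 4), Ankib1 (5 and 6), Mib1 (4 and 6) and Hace1 (5 and 2) the most sham-only reads. Chromatin regulators gave 3 crush-only hosts of 44, the histone methyltransferase Dot1l (7 and 8), Jmjd1c (10 and 4) and Asxl1 (5 and 7), and 1 sham-only, the histone methyltransferase Nsd1 (2 and 2), at shares of 6.82% and 2.27%. The crush-only share of chromatin genes was that of all hosts, 6.79%.

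Lipid genes gave 3 crush-only hosts of 30 (10%), led by Cers6 (42 and 34), and 1 sham-only (3.33%). For these and the next lists, the shares over all hosts were 6.79% crush-only and 5.80% sham-only. RNA-binding and decay factors gave 2 and 1 of 32 (6.25% and 3.13%), with Upf2 and the deadenylase subunit Pan3. Of 2 adipocyte hosts 0 were in either set. Among 41 genes widely reported to host circRNAs, 6 were crush-only (14.6%) and 5 sham-only (12.2%). Picalm and Cdyl led the crush-only hosts, and Hipk3 had a crush-only circRNA with 5 and 4 reads that shared an end with circRNAs holding 56 reads after sham. Itch, with 8 and 4 sham-only reads, was among the sham-only hosts.

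**Figure D4:**
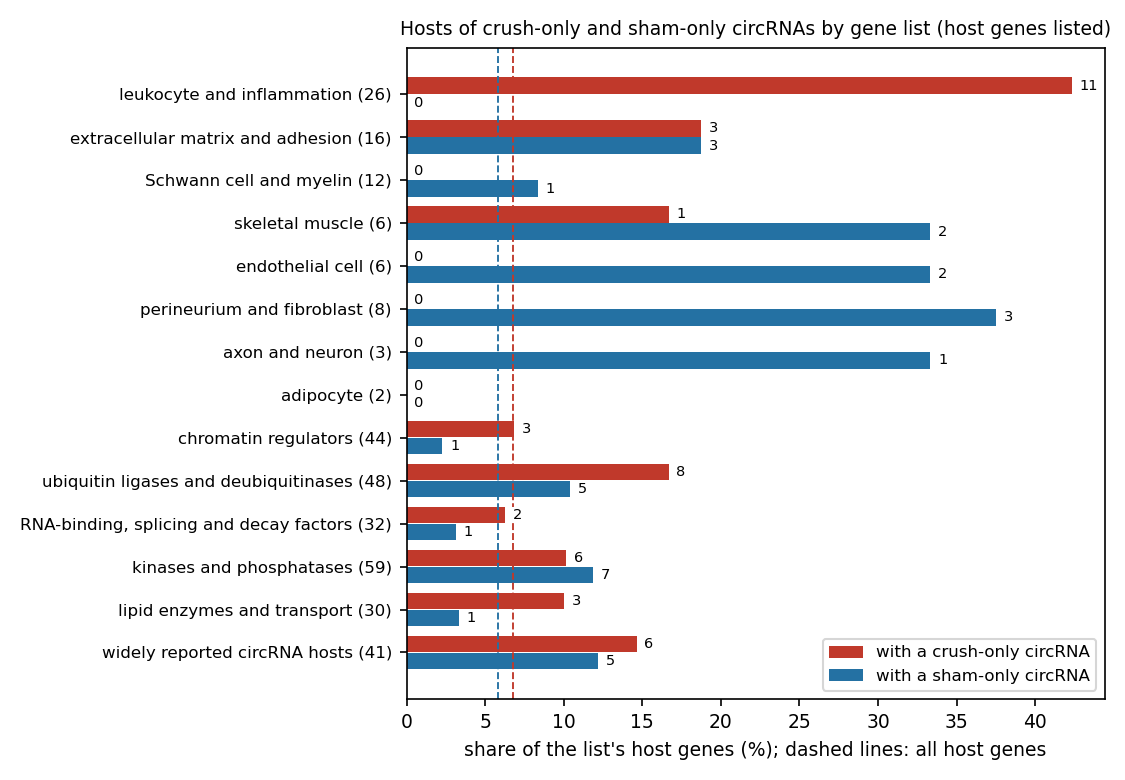
Share of each list's host genes (percent, horizontal) with a crush-only circRNA, red, or a sham-only circRNA, blue, with the number of hosts at each bar and the hosts listed in brackets. Dashed lines mark the share over all hosts, 6.79% and 5.80%; leukocyte and inflammation genes reach 42.3% crush-only and 0 sham-only.

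The 6 hosts with circRNAs in both sets were Abca1, Itch, Mindy3, Pan3, Pik3c2a and Synrg. In 3 of them a crush-only and a sham-only circRNA shared one end. For Itch, a ubiquitin ligase, chr3:150692740-150696569 had 3 and 2 reads after crush only and chr3:150686708-150696569 had 5 and 2 after sham only. For Mindy3, a deubiquitinase, chr17:79761095-79777211 had 2 and 4 after crush only and chr17:79740146-79777211 had 2 and 7 after sham only.

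For Abca1, a cholesterol exporter, the longer circRNA was the crush-only one, chr5:69929580-69956147 with 2 and 3 reads, and chr5:69951194-69956147 had 3 and 2 after sham only. For Pan3, Pik3c2a and Synrg the members of the sets lay at separate junctions, such as chr12:9309987-9324674 (4 and 3 reads, crush-only) and chr12:9221435-9240810 (2 and 3, sham-only) of Pan3. The members of these 6 hosts had counts near the lower limit of the list, whereas other circRNAs of Pan3 held 75, 76, 48 and 63 reads.

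Many members had a relative in the other condition. Of the crush-only circRNAs, 71 (31.8%) shared an end with a circRNA that had sham reads, and 62 sham-only circRNAs (35.2%) shared an end with one that had crush reads. Overlap on the same strand with a circRNA called in the other condition was found for 81 (36.3%) and 71 (40.3%). Few members had a near-identical row in the other condition: 0 crush-only circRNAs and 1 sham-only circRNA, in Eri3, lay within 10 bases at both ends of a row with reads in the other condition. In the crush-only set, 9 circRNAs lay that close to another listed row, in Klhl21, Sdcbp, Ipcef1 and an intergenic pair on chromosome 4.

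Intergenic members were mostly far from hosted circRNAs. On their own strand, 23 of 39 crush-only and 17 of 25 sham-only ones lay over 100000 bases from the nearest circRNA with a host, and 4 and 7 overlapped one. The class is that of the authors' annotation, and no other annotation of that build was used.

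The other circRNAs of the same hosts, which the rule did not keep, ran mostly in the direction of the members. Their reads were summed per host and tested with edgeR's quasi-likelihood test over 272 hosts with at least 20 such reads, and 0 of the 272 (0.00%) passed an adjusted p of 0.05, 52 having an unadjusted p under 0.05 and 1 passing with DESeq2. Of 25 crush-only hosts tested, 21 were higher after crush, with a median log2 change (crush minus sham) of 0.41. Of 20 sham-only hosts, 17 were lower, with a median of -0.73. The 226 other hosts had a median of -0.07, with 110 higher, and all 272 had -0.02.

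The level of 0 depends on the scaling. With library totals taken from SRPBM, the median of all 272 hosts moved to -0.40, 15 of the 25 crush-only hosts were higher (median 0.0588), and 19 of the 20 sham-only hosts were lower (median -1.09). Relative to the median of all hosts, the crush-only hosts lay 0.43 higher with the main scaling and 0.46 with SRPBM totals, and the sham-only hosts -0.71 and -0.69. Without sham replicate 2, 29 of 197 hosts tested passed, 20 higher and 9 lower, among them the crush-only hosts Irak3, Mctp2 and Mlip and the sham-only host Stk39.

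Among crush-only hosts, the other circRNAs of Mbd2, a methyl-CpG binding protein, had 20, 16, 4 and 3 reads in crush 1, crush 2, sham 1 and sham 2 (log2 change 2.50 ± 0.50 SE, adjusted p = 0.161 by edgeR). The 2 groups did not overlap. Those of Mctp2 had 15, 15, 0 and 3 reads (3.38 ± 0.93, adjusted p = 0.210 by edgeR), and those of Cdyl 21, 37, 9 and 10 (1.76 ± 0.50, adjusted p = 0.210 by edgeR). Those of Upf2 had 14, 17, 8 and 2 (1.79 ± 0.64, adjusted p = 0.245 by edgeR). None of these passed, though in each host the crush libraries both lay above the sham libraries.

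Mlip went against its member. Its other circRNAs had 74, 77, 204 and 226 reads in crush 1, crush 2, sham 1 and sham 2 (log2 change -1.34 ± 0.21 SE, adjusted p = 0.115 by edgeR), while its crush-only circRNA had 2 and 2 reads. It passed with SRPBM totals (adjusted p = 0.0171 by edgeR).

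Among sham-only hosts, the other circRNAs of Stk39 had 8, 9, 35 and 31 reads in crush 1, crush 2, sham 1 and sham 2 (-1.77 ± 0.44, adjusted p = 0.169 by edgeR). Those of Nek1, a kinase of cilia and DNA repair, had 5, 4, 19 and 16 (-1.75 ± 0.47, adjusted p = 0.210 by edgeR). The sham libraries lay above the crush libraries in both hosts, without passing.

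**Figure D5:**
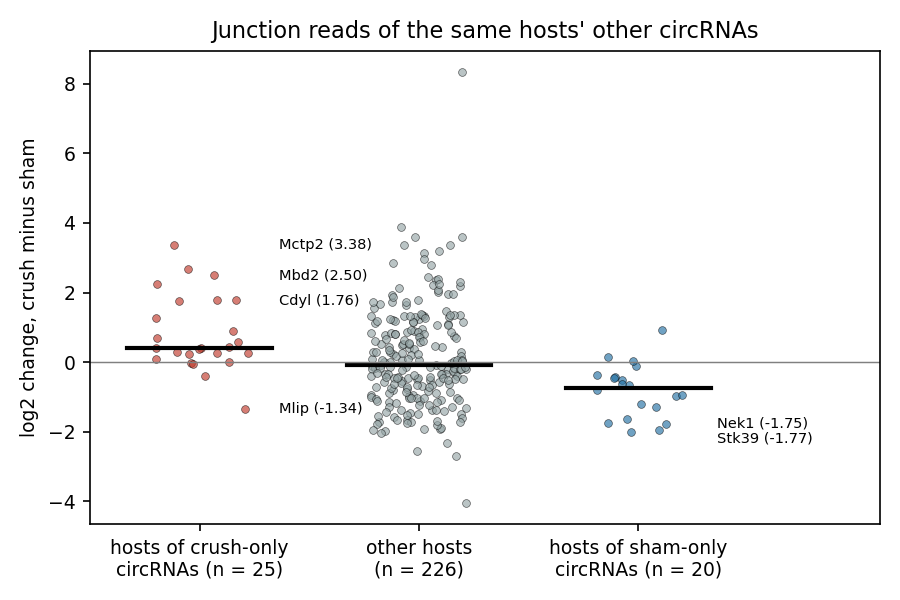
Log2 change (crush minus sham, vertical) in junction reads of circRNAs that the rule did not keep, per host gene with at least 20 such reads, for hosts of crush-only circRNAs, hosts of sham-only circRNAs and other hosts; black bars are medians, and points are spread sideways for view. The medians are 0.41, -0.73 and -0.07, with 0 of 272 hosts past an adjusted p of 0.05.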

How the data were processed

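Total RNA of 4 rat sciatic nerve libraries was sequenced, per the labels' protocols after RNeasy extraction and paired-end VAHTS library preparation. The authors deposited, per the file headers, back-splice junction read counts and SRPBM signal for 4942 circRNAs. SRPBM was the count times 1 constant per library. Per the submitters' processing notes, the build was Rnor_6.0 and the tools included BWA, CASAVA 1.8 and edgeR; no circRNA caller is named in the sources used here. Whether positions count from 0 or 1 is not stated in the files.

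The members and gene lists were chosen with earlier results of these data known. Members had counts above 0 in both libraries of one condition and 0 in both of the other; minimum counts and each left-out library were alternatives. Shares and median spans have 95% Clopper-Pearson or order-statistic intervals. For folds each 0 was set to 3 reads, without allowance for a lone unlisted read, so they are not strict lower bounds.

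Reads of circRNAs not kept were summed per host, for hosts with at least 20 in all, and tested with edgeR 4.0.16 (quasi-likelihood, TMM, two-sided, Benjamini-Hochberg over all hosts tested, threshold 0.05) in R 4.3.3, with DESeq2 1.42.0 as an alternative. The test was also run on counts simulated from the means and spread of these data. Symbols were updated through RefSeq's GRCr8 table: 2175 hosts matched by symbol, 100 by synonym, and 55 kept the file's name.

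Named were the 12 members of each set with the highest mean SRPBM, the 3 longest and shortest, hosts with at least 3 members, the leading hosts with 2, hosts in both sets, up to 4 hosts per list by reads, and the hosts with the smallest p. Any other member named was chosen after its values were seen. Some members, hosts and 1 list that this rule names are not reported here.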

Additional observations from a re-analysis of the deposited data

How the results depend on the processing

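The sets shrink quickly with the reads required. At least 3, 5 or 10 reads in both libraries left 113, 38 and 10 crush-only and 82, 23 and 2 sham-only circRNAs. At 5 reads, the crush-only shares were 57.9% exonic, 15.8% intronic and 26.3% intergenic, and the sham-only shares 69.6% exonic and 26.1% intergenic, with a sham-only median span of 20006 bases. Leaving out 1 library at a time gave 300 to 1275 crush-only and 240 to 1012 sham-only circRNAs, the higher counts where 1 library alone decided. The median spans were then 6170 to 7410 and 10899 to 13252 bases, the intronic shares 7.33% to 12.3% and 3.26% to 9.58%, and the exonic shares 71.4% to 77.3% and 75.2% to 82.9%.

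In the host test, DESeq2 called 1 host, SRPBM totals 3 and no filter on reads 11 of 2231. The replicate block gave 1 call, and the crossed pairing, added after seeing the data, gave 0. The labels do not say whether replicate numbers pair the libraries. The replicate differences had r = -0.11 over 272 hosts, which cannot decide it. Leaving out 1 library gave 0 to 29 calls, 29 without sham replicate 2. The median log2 change of crush-only hosts was 0.0588 with SRPBM totals, 0.70 with at least 10 reads in all, 1.01 with no filter and 0.21 to 0.79 with 1 library left out. The cause of these shifts was not tested. The medians of crush-only hosts and of sham-only hosts kept their sign under the alternatives run. Those of all hosts and of other hosts, near 0, did not: with at least 10 reads in all they were 0.096 and 0.089. The orders between the sets did change: the intronic shares turned without sham replicate 1 and without sham replicate 2, the exonic shares turned without sham replicate 2, and the sham-only set was the larger without sham replicate 1 (980 against 301) and without sham replicate 2 (1012 against 300). In those runs a sham-only circRNA needed reads in 1 library and a crush-only one in both, which by itself enlarges the sham-only set. The turns therefore do not compare like sets. Nor do the runs without a crush library, where the requirement was the reverse. Of the alternative values of the main results, 77 stayed within the limits set and 29 moved. At a median of 3 reads, a listed 0 in the other condition can hide reads.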
